A study of Mus musculus with 15 samples.

Results

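A pair of leukaemia alleles was combined in one mouse cell line, and the level of each gene in cells with both was set against the level that the effects of the single alleles, added together, would give. The line is called HoxB in the labels, with the cell type given as Blood. RUNX1-ETO_FIRST cells carried the RUNX1-ETO fusion and then CSF3R-T618I, the fusion being the allele introduced first. RUNX1-ETO_ONLY cells carried the fusion alone, CSF3R_ONLY cells carried CSF3R-T618I alone, and EMPTY cells carried control vectors. The members were chosen by these labels: 12 of the 15 libraries of the series, 3 in each of the 4 groups, and 13123 genes tested of 52327 in the deposited table. The remaining 3 libraries, with both alleles in the other order, entered only the expression filter, the normalization and the estimate of the spread. No source used here gives the promoter driving each allele, the use of clones or pools, or how the line was made. The labels do not say that replicates were separate cultures, and the spread behind each p-value may therefore be technical.

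RUNX1-ETO joins the DNA-binding part of RUNX1, a regulator of blood development, to most of the co-repressor ETO, the product of RUNX1T1. It arises from a translocation found in acute myeloid leukaemia and is known to block granulocyte differentiation. CSF3R is the receptor for granulocyte colony-stimulating factor (G-CSF), the cytokine that drives neutrophil production. It signals through JAK and STAT proteins, and the T618I change, known from neutrophil leukaemias, makes it signal without its ligand.

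A gene was called additive on the log2 scale when its level in RUNX1-ETO_FIRST was what both single fold changes, multiplied together, would give. The additivity difference was the log2 level in RUNX1-ETO_FIRST minus those in RUNX1-ETO_ONLY and CSF3R_ONLY plus that in EMPTY. It is 0 for an additive gene, positive for a gene above the sum and negative for a gene below it. Levels are in CPM, the deposited counts divided by the effective library size of their library. The threshold was an adjusted p of 0.05 over all genes tested. SE is the standard error on the log2 scale implied by the F test. It is the absolute log2 difference divided by the square root of F.

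The libraries held 17007437 to 18178292 counts, with 16423 to 17242 genes detected and 1.19% to 3.01% of counts from mitochondrial transcripts. All 7 blood identity markers were detected in all 4 groups. Lymphoid markers summed to at most 0.444 CPM in any library. The 8 stromal and epithelial markers summed to 711 to 728 CPM in RUNX1-ETO_FIRST and 526 to 567 in RUNX1-ETO_ONLY. Their sums were 329 to 337 CPM in CSF3R_ONLY and 271 to 292 in EMPTY. In the same order of groups 5, 4, 4 and 2 of the 8 were detected, and Col1a2, Col3a1 and Krt18 were at 0 in all 4. Only Pecam1 and Col1a1 of the 8 were among the genes tested, and Col1a1 averaged at most 1.003 CPM in any group. One library in each of 3 groups stood apart in long transcripts: RUNX1-ETO_FIRST 1, RUNX1-ETO_ONLY 3 and EMPTY 3. Their deviations from the group mean correlated with transcript length at -0.45, -0.50 and -0.59 (Spearman, across 12820 genes). Without these libraries and CSF3R_FIRST 3, which stood apart in the same way, 1557 genes were above and 1909 below the sum, against 842 and 1236 with them, and no call turned to the other side. Median additivity was 0.10 in the third of genes with the shortest transcripts and -0.13 in the third with the longest.

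The alleles' own transcripts came out as labelled for the fusion. Runx1t1 (chromosome 4, 13743436 to 13893649, plus strand, mm10), the mouse gene for ETO, had 381, 539 and 564 CPM in RUNX1-ETO_FIRST, 439, 513 and 392 CPM in RUNX1-ETO_ONLY, and no counts in the libraries of CSF3R_ONLY and EMPTY. Runx1 (chromosome 16, 92601466 to 92826149, minus strand) had 537, 627 and 669.5 CPM in RUNX1-ETO_FIRST. It had 569, 559 and 513 CPM in RUNX1-ETO_ONLY, 132, 125 and 126 CPM in CSF3R_ONLY and 92.9, 96.4 and 81.5 CPM in EMPTY. Runx1 rose with each allele alone, and its additivity difference of -0.34 (SE 0.13, adjusted p = 0.11) did not pass the test. Csf3r (chromosome 4, 126024550 to 126044440, plus strand) had 416, 401 and 441 CPM in RUNX1-ETO_FIRST and 507, 536 and 530.4 CPM in RUNX1-ETO_ONLY, 617, 626 and 622 CPM in CSF3R_ONLY and 422, 465 and 373 CPM in EMPTY. The CSF3R_ONLY libraries lay above all others, and those of RUNX1-ETO_FIRST lay within the EMPTY range. Csf3r was below the sum, with a difference of -0.89 (SE 0.12, adjusted p = 7.72e-05). No source used here names the species of the introduced sequences, so these counts may miss part of the introduced transcripts.

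Departures from the sum were found in 2078 of 13123 genes, 15.8%. Of these, 842 genes (6.42%) were above the sum and 1236 (9.42%) below it. The median additivity of all genes tested was -0.02. Among genes above the sum the median was 0.82, and among those below it was -0.94. A departure of at least 2-fold was found in 921 genes (7.02%), 338 above and 583 below. The double was further from EMPTY than either single group by number of genes: 5768 genes (44%) differed in RUNX1-ETO_FIRST, 5117 (39%) in RUNX1-ETO_ONLY and 4347 (33.1%) in CSF3R_ONLY. With the fusion alone 20.8% of genes rose and 18.2% fell, and with the receptor alone 19.9% rose and 13.2% fell. These 3 comparisons share the EMPTY libraries.

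Sorted by what each allele did alone, the departures lay mostly towards smaller effects than the sum. Of 1071 genes that rose with each allele alone, 582 were below the sum and 12 above. The median log2 fold changes of the 582 were 1.93 in RUNX1-ETO_FIRST, 1.56 in RUNX1-ETO_ONLY and 1.63 in CSF3R_ONLY, each against EMPTY. In 148 of the 582 the double was above both singles by their own tests, and in 24 it was below both. Of 583 genes that fell with each allele alone, 258 were above the sum and 10 below. The 258 had medians of -0.64 in RUNX1-ETO_FIRST, -0.91 in RUNX1-ETO_ONLY and -0.74 in CSF3R_ONLY. A further 281 genes below the sum rose with the receptor alone and did not pass the test with the fusion alone, and 171 of these did not pass it in the double either. Another 117 genes above the sum fell with the receptor alone and did not pass with the fusion alone, and in 73 of them the double did not pass. The classes use libraries that also enter the additivity difference, so they describe the departures and are not a second test of them.

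**Figure D1:**
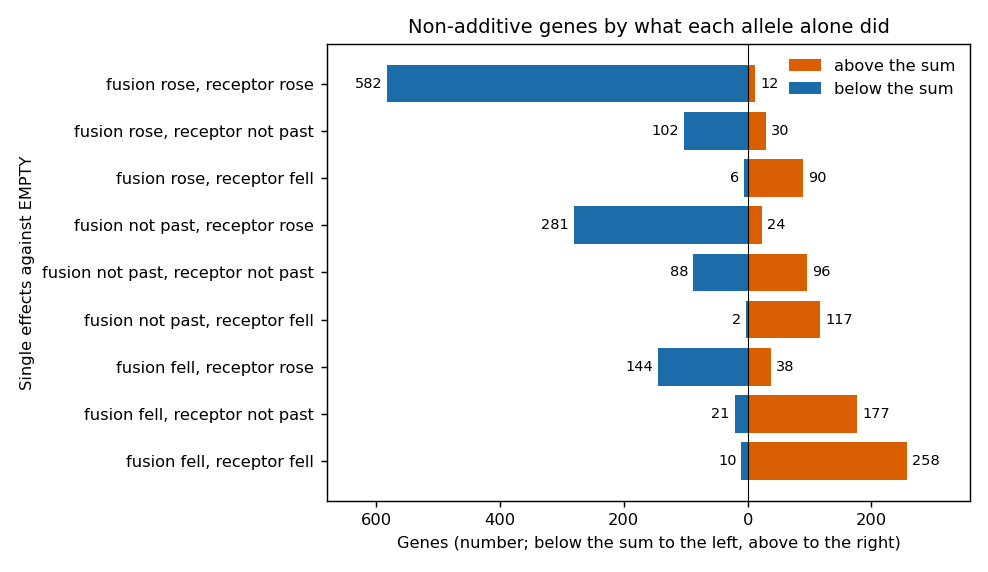
Number of genes past the additivity test, below the sum to the left and above it to the right, in each class of single effects (rose, fell or did not pass the test against EMPTY). The longest bar, 582 genes below the sum, belongs to genes that rose with each allele alone, and 258 genes above the sum fell with each alone.

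The scale of the sum decides the sign for some genes. Of the 2078 genes, 1922 kept their sign when CPM values were added instead of log2 values, and 156 had the other sign, 126 of them below the log2 sum. Among the 582 genes that rose with each allele and were below the log2 sum, 119 were above the CPM sum. Above and below refer to the log2 sum unless the CPM sum is named.

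Some genes passed the test against EMPTY with neither allele alone and were high with both. Tnfrsf8 (chromosome 4, 145267137 to 145315164, minus strand) encodes CD30, a receptor of the tumour necrosis factor family. It had 54.4, 50.8 and 52.4 CPM in RUNX1-ETO_FIRST, against 4.28, 3.65 and 5.08 CPM in RUNX1-ETO_ONLY, 4.90, 5.15 and 5.13 CPM in CSF3R_ONLY and 5.34, 5.06 and 4.20 CPM in EMPTY. All RUNX1-ETO_FIRST libraries lay far above every other library, and the other 3 groups overlapped. Its additivity difference was 3.54 (SE 0.17, adjusted p = 1.55e-09), a level 11.6-fold that of the sum. Plod2 (chromosome 9, 92542223 to 92608428, plus strand), an enzyme that hydroxylates collagen lysines, had 104, 108 and 111 CPM in RUNX1-ETO_FIRST and 47.7, 46.3 and 44.4 CPM in RUNX1-ETO_ONLY, 47.96, 42.1 and 44.6 CPM in CSF3R_ONLY and 46.8, 48.2 and 43.8 CPM in EMPTY. Here too the double stood alone while the other groups overlapped, with a difference of 1.27 (SE 0.10, adjusted p = 4.21e-07). In all, 96 genes above the sum passed the test with neither allele alone, and in 80 of these the double was above both singles. Pmepa1, a membrane protein that restrains TGF-beta signalling, was one, with 16.2 CPM in RUNX1-ETO_FIRST, 8.81 in RUNX1-ETO_ONLY, 6.21 in CSF3R_ONLY and 8.06 in EMPTY. There were also 88 genes below the sum that passed with neither allele alone, and in 65 of them the double was below both singles. Pkp4, a plakophilin-related junction protein, had 4.32, 7.26 and 7.67 CPM in RUNX1-ETO_FIRST, against 23.97, 20.3 and 22.01 CPM in RUNX1-ETO_ONLY, 21.8, 20.5 and 22.6 CPM in CSF3R_ONLY and 23.03, 22.1 and 15.2 CPM in EMPTY, a difference of -1.89 (SE 0.34, adjusted p = 0.001). Its RUNX1-ETO_FIRST libraries were the lowest, RUNX1-ETO_FIRST 1 most of all, and the other groups overlapped.

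Lama5 (chromosome 2, 180176373 to 180225859, minus strand), the laminin alpha 5 chain of basement membranes, had the largest rise above the sum among genes that the receptor alone raised and that did not pass with the fusion alone, at a mean log2 CPM of at least 3. Its levels were 119, 197 and 163 CPM in RUNX1-ETO_FIRST and 9.54, 14.1 and 8.49 CPM in RUNX1-ETO_ONLY, 21.5, 21.9 and 20.5 CPM in CSF3R_ONLY and 7.71, 9.00001 and 3.24 CPM in EMPTY. All RUNX1-ETO_FIRST libraries lay above all others. The sum of the single effects would be 34.3 CPM, and the difference was 2.23 (SE 0.41, adjusted p = 0.0012). The 3 libraries low in long transcripts, RUNX1-ETO_FIRST 1, RUNX1-ETO_ONLY 3 and EMPTY 3, were each the lowest of their group for this gene. Col18a1, which encodes collagen XVIII, was also raised by the receptor alone and further in the double, with 46.2 CPM in RUNX1-ETO_FIRST, 4.12 in RUNX1-ETO_ONLY, 20.1 in CSF3R_ONLY and 4.33 in EMPTY, a difference of 1.27 (SE 0.21). Scd1, a fatty acid desaturase, did the same, with 264 CPM in RUNX1-ETO_FIRST, 51.6 in RUNX1-ETO_ONLY, 157 in CSF3R_ONLY and 59.3 in EMPTY, a difference of 0.95 (SE 0.18).

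Only 12 genes that rose with each allele alone were above the log2 sum, and in all 12 the double was above both singles. Furin (chromosome 7, 80388585 to 80405436, minus strand), a protease that cuts proproteins to their mature forms, was at 1671, 1686 and 1758 CPM in RUNX1-ETO_FIRST. It was at 239, 242 and 214 CPM in RUNX1-ETO_ONLY, 428, 440.4 and 444 CPM in CSF3R_ONLY and 109.6, 111 and 84.01 CPM in EMPTY. The groups were fully apart, in the order RUNX1-ETO_FIRST, CSF3R_ONLY, RUNX1-ETO_ONLY and EMPTY. Furin departed from the sum by 0.77 (SE 0.15, adjusted p = 0.0026). Capn2, a calpain protease, averaged 69.1 CPM in RUNX1-ETO_FIRST, 30.1 in RUNX1-ETO_ONLY, 12.003 in CSF3R_ONLY and 9.88 in EMPTY and was above by 0.92 (SE 0.13). Psen2, a component of the gamma-secretase complex, averaged 111 CPM in RUNX1-ETO_FIRST, 53.8 in RUNX1-ETO_ONLY, 34.97 in CSF3R_ONLY and 28.4 in EMPTY and was above by 0.74 (SE 0.11).

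A larger set above the sum comprised genes that the receptor lowered alone, and lowered less or not at all in fusion cells. Of 315 genes that rose with the fusion and fell with the receptor, 90 were above the sum and 6 below. Irf8 (chromosome 8, 120736358 to 120756694, plus strand), a transcription factor of monocyte and dendritic cell development, had 18.1, 18.6 and 18.9 CPM in RUNX1-ETO_FIRST. Its other values were 22.2, 24.1 and 24.7 CPM in RUNX1-ETO_ONLY, 1.05, 0.637 and 1.10 CPM in CSF3R_ONLY and 9.75, 9.89 and 10.3 CPM in EMPTY. The receptor alone lowered it 10.7-fold, whereas in fusion cells its effect was -0.35 on the log2 scale (adjusted p = 0.015). No groups overlapped. The additivity difference was 3.06 (SE 0.18, adjusted p = 2.31e-08). Ptprf (chromosome 4, 118208213 to 118291405, minus strand), the receptor tyrosine phosphatase LAR, stood at 45.4, 61.1 and 58.8 CPM in RUNX1-ETO_FIRST and 42.1, 44.8 and 34.01 CPM in RUNX1-ETO_ONLY, 1.40, 1.74 and 1.38 CPM in CSF3R_ONLY and 19.7, 17.5 and 8.70 CPM in EMPTY. Its groups did not overlap either. The receptor lowered it 10.1-fold alone, and in fusion cells the receptor effect was 0.45 on the log2 scale and did not pass (adjusted p = 0.12). The difference was 3.79 (SE 0.37, adjusted p = 3.06e-06), the largest above the sum among genes with at least 10 counts on average in each group and a mean log2 CPM of at least 3.

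Akr1c13, an aldo-keto reductase, rose with the receptor in fusion cells, with 61.9, 50.99 and 50.9 CPM in RUNX1-ETO_FIRST and 20.9, 17.9 and 21.9 CPM in RUNX1-ETO_ONLY, 6.18, 6.25 and 7.09 CPM in CSF3R_ONLY and 11.95, 10.6 and 17.4 CPM in EMPTY. All RUNX1-ETO_FIRST libraries lay above all others, and the difference was 2.46 (SE 0.25, adjusted p = 4.04e-06). Prr5, a component of the mTORC2 kinase complex, averaged 17.7 CPM in RUNX1-ETO_FIRST, 25.5 in RUNX1-ETO_ONLY, 1.76 in CSF3R_ONLY and 10.4 in EMPTY, a difference of 2.03 (SE 0.27). Met, the hepatocyte growth factor receptor, fell with the receptor alone and did not pass with the fusion alone. It had 33.9, 50.4 and 43.5 CPM in RUNX1-ETO_FIRST and 48.1, 43.7 and 31.1 CPM in RUNX1-ETO_ONLY, 8.87, 9.44 and 8.71 CPM in CSF3R_ONLY and 42.5, 40.1 and 20.3 CPM in EMPTY. Its RUNX1-ETO_FIRST, RUNX1-ETO_ONLY and EMPTY libraries overlapped, CSF3R_ONLY lay below all of them, and the difference was 1.99 (SE 0.33, adjusted p = 5.38e-04). Elk3, an ETS transcription factor, had the same single effects, with 102 CPM in RUNX1-ETO_FIRST, 69.6 in RUNX1-ETO_ONLY, 32.3 in CSF3R_ONLY and 71.9 in EMPTY and a difference of 1.71 (SE 0.11), and the co-repressor gene Rcor2 had 51.6 CPM in RUNX1-ETO_FIRST, 33.3 in RUNX1-ETO_ONLY, 17.7 in CSF3R_ONLY and 36.5 in EMPTY and 1.68 (SE 0.15).

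Of the 583 genes that each allele lowered alone, 44.3% were above the sum. Ccnd2 (chromosome 6, 127125162 to 127152193, minus strand) encodes cyclin D2, which drives entry into the cell cycle. It had 53.6, 62.2 and 62.9 CPM in RUNX1-ETO_FIRST and 70.1, 69.4 and 55.9 CPM in RUNX1-ETO_ONLY, 17.4, 17.7 and 17.9 CPM in CSF3R_ONLY and 174, 159.7 and 147 CPM in EMPTY. RUNX1-ETO_FIRST and RUNX1-ETO_ONLY overlapped, CSF3R_ONLY was lowest and EMPTY highest. The sum of effects would be 7.17 CPM, and the difference was 3.05 (SE 0.15, adjusted p = 1.63e-09). Pou2f2, the transcription factor OCT2, showed the same order, with 15.4, 14.8 and 18.4 CPM in RUNX1-ETO_FIRST and 16.6, 20.1 and 19.02 CPM in RUNX1-ETO_ONLY, 2.39, 3.07 and 2.31 CPM in CSF3R_ONLY and 30.4, 30.1 and 42.8 CPM in EMPTY, a difference of 3.53 (SE 0.24, adjusted p = 6.66e-08). For St14, the membrane protease matriptase, the double lay above both singles, with 13.01, 13.9 and 13.98 CPM in RUNX1-ETO_FIRST and 3.47, 3.44 and 4.09 CPM in RUNX1-ETO_ONLY, 8.75, 10.1 and 9.46 CPM in CSF3R_ONLY and 24.4, 23.8 and 15.5 CPM in EMPTY. St14 was above the sum by 3.06 (SE 0.24, adjusted p = 3.55e-07). Bhlha15, the secretory cell transcription factor MIST1, averaged 20.1 ± 2.18 CPM in RUNX1-ETO_FIRST, 9.33 ± 0.669 in RUNX1-ETO_ONLY, 7.09 ± 1.16 in CSF3R_ONLY and 19.95 ± 3.13 in EMPTY (SD, n = 3 each), a difference of 2.60 (SE 0.20). Either allele lowered it, and with both it was not shown to differ from EMPTY (adjusted p = 0.98).

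Nav2, a cytoskeletal protein gene, and Nebl, which encodes the actin-binding protein nebulette, also fell with each allele. Nav2 averaged 25.8 CPM in RUNX1-ETO_FIRST, 23.2 in RUNX1-ETO_ONLY, 16.04 in CSF3R_ONLY and 66.6 in EMPTY, a difference of 2.21 (SE 0.24), and Nebl averaged 17.9 CPM in RUNX1-ETO_FIRST, 17.9 in RUNX1-ETO_ONLY, 16.5 in CSF3R_ONLY and 71.02 in EMPTY, a difference of 2.11 (SE 0.27). H2-Q4, a class I histocompatibility gene of a family of near-identical copies, averaged 15.04 CPM in RUNX1-ETO_FIRST, 5.61 in RUNX1-ETO_ONLY, 8.47 in CSF3R_ONLY and 25.9 in EMPTY, a difference of 3.03 (SE 0.19). No source used here says how reads shared between copies were counted, so its values are less certain. Only 10 genes that fell with each allele were below the sum, and 7 of these were above the CPM sum. Clec12a, an inhibitory lectin receptor of myeloid cells, was at 9.54, 7.92 and 6.48 CPM in RUNX1-ETO_FIRST and 22.2, 22.8 and 26.5 CPM in RUNX1-ETO_ONLY, 141, 143 and 134 CPM in CSF3R_ONLY and 196, 183 and 217 CPM in EMPTY, a difference of -1.07 (SE 0.20, adjusted p = 0.0014). Its groups did not overlap, RUNX1-ETO_FIRST was lowest, and it was above the CPM sum. Chdh, the choline dehydrogenase of mitochondria, averaged 1.56 CPM in RUNX1-ETO_FIRST, 12.8 in RUNX1-ETO_ONLY, 19.8 in CSF3R_ONLY and 46.1 in EMPTY, a difference of -1.81 (SE 0.34), and the kinase gene Pak1 averaged 4.67 CPM in RUNX1-ETO_FIRST, 14.1 in RUNX1-ETO_ONLY, 22.2 in CSF3R_ONLY and 30.7 in EMPTY, a difference of -1.12 (SE 0.15).

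In 2 genes far above the sum, CSF3R_ONLY had under 10 counts on average, so levels are given in place of a fold change. Bnip5 had 43.7, 52.4 and 49.1 CPM in RUNX1-ETO_FIRST, 15.7, 18.3 and 13.9 in RUNX1-ETO_ONLY, 0.292, 0.695 and 0.634 in CSF3R_ONLY and 51.8, 66.8 and 44.3 in EMPTY. The CSF3R_ONLY values correspond to 5, 12 and 11 counts. RUNX1-ETO_FIRST and EMPTY overlapped. Itga9, the integrin alpha 9 chain, had 31.4, 37.3 and 36.6 CPM in RUNX1-ETO_FIRST, 58.2, 60.8 and 51.6 in RUNX1-ETO_ONLY, 0.292, 0.521 and 0.461 in CSF3R_ONLY and 4.68, 4.22 and 3.30 in EMPTY. On the CPM scale Itga9 was below the sum, so its side depends on the scale.

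**Figure D2:**
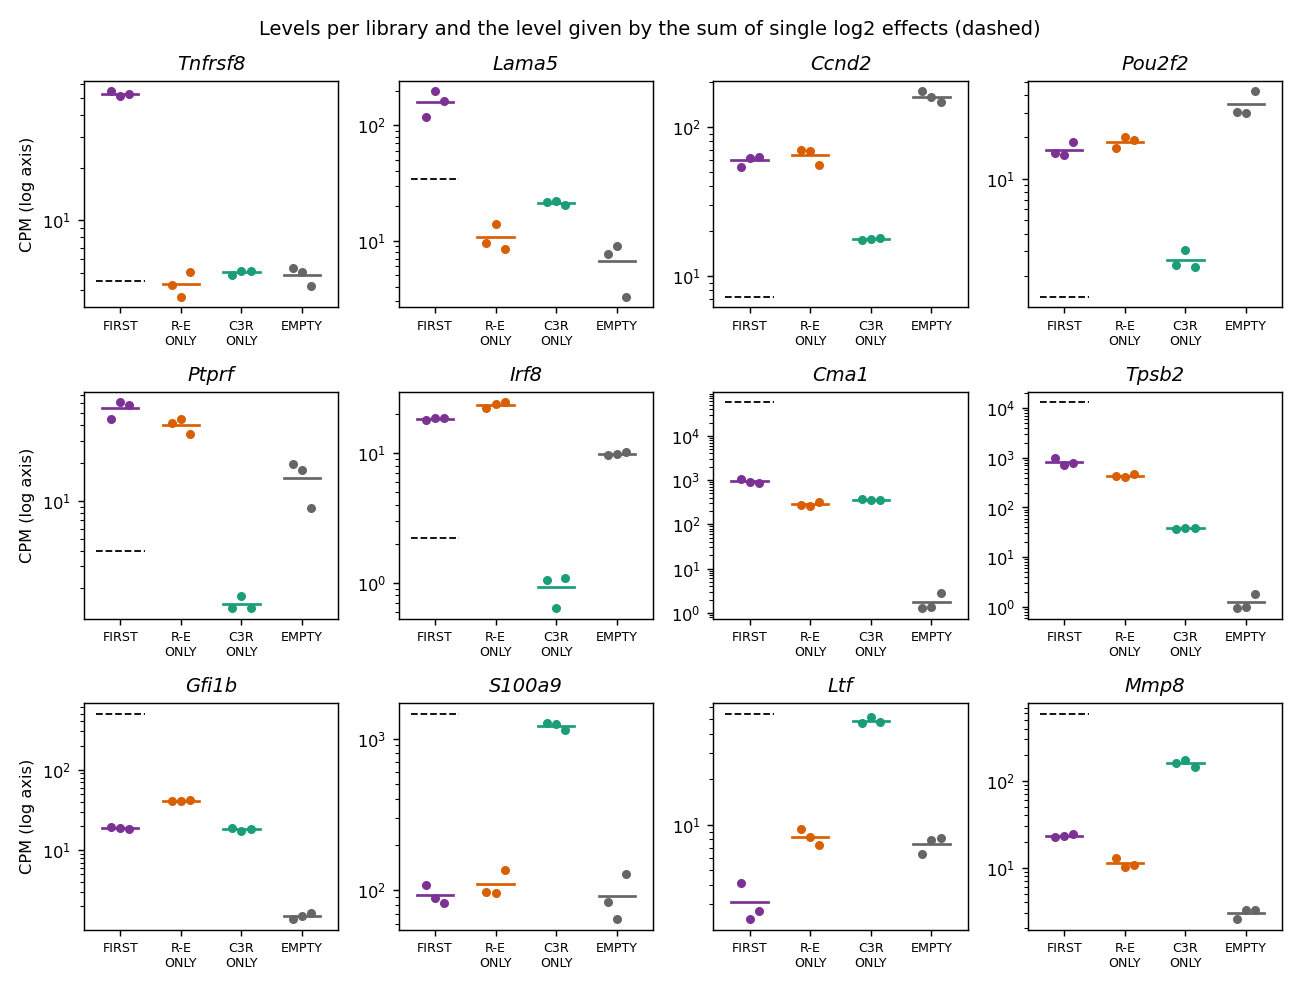
CPM (log axis) of 12 genes in the 3 libraries of RUNX1-ETO_FIRST (FIRST), RUNX1-ETO_ONLY (R-E ONLY), CSF3R_ONLY (C3R ONLY) and EMPTY, with a line at each group mean and a dashed line at the level given by the sum of the single log2 effects. The first 6 genes lie above the dashed line in RUNX1-ETO_FIRST and the other 6 below it, and for Tnfrsf8 and Lama5 every RUNX1-ETO_FIRST library lies above all others.

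Below the sum, mast cell genes formed one group. Mast cells store proteases and histamine in granules, and the line had these transcripts in all groups: the summed level of 8 mast cell markers had medians of 16033 CPM in RUNX1-ETO_FIRST, 11674 in RUNX1-ETO_ONLY, 3219 in CSF3R_ONLY and 1279 in EMPTY, with Fcer1a at 0 in EMPTY. Of 22 tested genes of mast cells, basophils and eosinophils, 14 were below the sum and 8 did not pass, where 9.42% of all genes tested were below. Their median additivity was -2.003, or -1.30 with a floor of 3 counts per library for groups near 0. With the fusion alone 16 rose and 4 fell, with the receptor alone 20 rose, and in the double 18 rose and 4 fell. Over all genes tested, 20.8% rose and 18.2% fell with the fusion alone, and 19.9% rose with the receptor alone. In the double 23.7% of all genes rose and 20.2% fell. In bulk samples, a change in the number of cells of a type and a change in RNA per cell cannot be told apart.

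Cma1 (chromosome 14, 55941451 to 55944675, minus strand), a mast cell chymase, was furthest below the log2 sum among genes with at least 10 counts on average in each group. It had 1065, 899.7 and 872 CPM in RUNX1-ETO_FIRST and 269, 259 and 321 CPM in RUNX1-ETO_ONLY, 367, 359 and 351 CPM in CSF3R_ONLY and 1.27, 1.33 and 2.76 CPM in EMPTY. The groups were apart, and RUNX1-ETO_FIRST was highest. Against EMPTY, the fusion alone raised it 159-fold and the receptor alone 202-fold, and the double was 533-fold higher. The difference was -5.92 (SE 0.25, adjusted p = 6.10e-10). Added as CPM the singles would give 640.1 CPM, so on that scale the double was 306 CPM above the sum. Tpsb2, a mast cell tryptase, had 979, 723 and 789.7 CPM in RUNX1-ETO_FIRST and 424, 411 and 469 CPM in RUNX1-ETO_ONLY, 37.2, 38.1 and 38.1 CPM in CSF3R_ONLY and 0.936, 1.0 and 1.86 CPM in EMPTY, with a difference of -3.97 (SE 0.23, adjusted p = 1.99e-08) and 359 CPM above the sum as CPM. Mcpt2, another mast cell protease, had 549, 436 and 447 CPM in RUNX1-ETO_FIRST and 10.8, 9.86 and 12.6 CPM in RUNX1-ETO_ONLY, 363, 359 and 339.6 CPM in CSF3R_ONLY and 0.165, 0.278 and 1.68 CPM in EMPTY. Its difference was -3.57 (SE 0.43, adjusted p = 3.06e-05), and the double was not shown to differ from the receptor alone (log2 0.43, adjusted p = 0.12). The size of the Mcpt2 difference is uncertain, because EMPTY was low and uneven, with EMPTY 3 highest. With single libraries left out it ranged from -5.15 to -3.09. F2r, the thrombin receptor PAR1, had 340.3, 389.6 and 365 CPM in RUNX1-ETO_FIRST and 122, 111 and 97.5 CPM in RUNX1-ETO_ONLY, 29.7, 27.9 and 27.97 CPM in CSF3R_ONLY and 0.661, 0.333 and 0.780 CPM in EMPTY, a difference of -3.86 (SE 0.21, adjusted p = 7.36e-09), and was also above the CPM sum. The proteases belong to families of close paralogs, so their counts are less certain.

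In 4 genes far below the log2 sum EMPTY was near 0. Mcpt4, a mast cell chymase, had 283, 216 and 239 CPM in RUNX1-ETO_FIRST, 44.4, 45.5 and 55.8 in RUNX1-ETO_ONLY, 34.4, 32.2 and 30.2 in CSF3R_ONLY and 0, 0 and 2 counts in the EMPTY libraries. Cd55, a complement regulator, had 194, 182 and 222 CPM in RUNX1-ETO_FIRST, 43.6, 43.4 and 46.4 in RUNX1-ETO_ONLY, 23.05, 21.7 and 19.6 in CSF3R_ONLY and 3, 1 and 0 counts in EMPTY. Slco2b1, an organic anion transporter, averaged 91.03 CPM in RUNX1-ETO_FIRST, 12.3 in RUNX1-ETO_ONLY and 19.8 in CSF3R_ONLY, and had 1, 1 and 2 counts in EMPTY. For these 3 genes RUNX1-ETO_FIRST was above both singles and above their CPM sum. Entpd3, an ectonucleotidase, had 41.1, 41.3 and 40.8 CPM in RUNX1-ETO_FIRST, 9.13, 11.05 and 11.1 in RUNX1-ETO_ONLY, 43.4, 45.2 and 45.6 in CSF3R_ONLY and 1, 4 and 2 counts in EMPTY, and the double was not shown to differ from the receptor alone (adjusted p = 0.29).

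Not all mast cell genes departed. Hdc, the histamine-forming enzyme, had 3458, 3341 and 3317 CPM in RUNX1-ETO_FIRST and 1598, 1522 and 1591 CPM in RUNX1-ETO_ONLY, 816, 834 and 864 CPM in CSF3R_ONLY and 429, 428 and 407 CPM in EMPTY. The groups were apart at each step, and the additivity difference of 0.11 (SE 0.10, adjusted p = 0.52) did not pass. Cpa3, mast cell carboxypeptidase, averaged 10985 CPM in RUNX1-ETO_FIRST, 9435 in RUNX1-ETO_ONLY, 1837 in CSF3R_ONLY and 986 in EMPTY, and its difference of -0.68 (SE 0.23, adjusted p = 0.055) did not pass. In 8 of 22 alternative settings Cpa3 did pass, below the sum, and its values over all settings were -0.99 to -0.55. Both genes passed the test against EMPTY in each of the 3 groups.

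Regulators of the mast, erythroid and megakaryocyte lineages were among the genes below the sum. Gfi1b (chromosome 2, 28609450 to 28621982, minus strand), a transcriptional repressor that acts in erythroid and megakaryocyte development, had 19.7, 18.9 and 18.6 CPM in RUNX1-ETO_FIRST and 40.9, 40.999 and 42.7 CPM in RUNX1-ETO_ONLY, 19.02, 17.5 and 18.3 CPM in CSF3R_ONLY and 1.38, 1.5 and 1.68 CPM in EMPTY. RUNX1-ETO_FIRST was far below RUNX1-ETO_ONLY and overlapped CSF3R_ONLY. The receptor alone raised Gfi1b 12.03-fold, whereas in fusion cells it lowered it 2.18-fold (adjusted p = 5.62e-07). The difference was -4.71 (SE 0.17, adjusted p = 1.13e-10), and Gfi1b was below the sum on the CPM scale too. Gata1 (chromosome X, 7959260 to 7978071, minus strand), a GATA factor of these lineages, had 70.7, 63.9 and 61.6 CPM in RUNX1-ETO_FIRST and 40.8, 39.97 and 45.5 CPM in RUNX1-ETO_ONLY, 34.8, 35.03 and 34.3 CPM in CSF3R_ONLY and 2.70, 2.94 and 4.68 CPM in EMPTY, a difference of -2.70 (SE 0.19, adjusted p = 8.87e-08). All RUNX1-ETO_FIRST libraries were above those of both singles. Homer2, a scaffold protein gene, had 34.9, 42.1 and 37.7 CPM in RUNX1-ETO_FIRST and 57.9, 52.7 and 52.98 CPM in RUNX1-ETO_ONLY, 15.1, 15.8 and 15.6 CPM in CSF3R_ONLY and 2.53, 2.56 and 1.80 CPM in EMPTY, a difference of -3.26 (SE 0.16, adjusted p = 2.72e-09). Its double lay between the singles. Adgrg6, an adhesion G protein-coupled receptor, averaged 61.5 CPM in RUNX1-ETO_FIRST, 23.1 in RUNX1-ETO_ONLY, 18.8 in CSF3R_ONLY and 0.718 in EMPTY, a difference of -3.28 (SE 0.23).

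The sequence upstream of 3 of these genes is shown because they are extremes of the additivity difference with both single effects known: Cma1 and Gfi1b below the sum and Tnfrsf8 above it. Each is the 250 bases before the RefSeq start on GRCm38.p6, read 5' to 3' on the minus strand: chr14:55944676-55944925, chr2:28621983-28622232 and chr4:145315165-145315414. Capitals mark a match to TTCNNNGAA, the spaced palindrome of STAT factors, found in Gfi1b. The other motifs searched, all on both strands, were TGTGGT for RUNX factors, AGATAA for GATA factors and TTGCNNAA for C/EBP factors. None of these 3 was found in the windows shown.
Cma1: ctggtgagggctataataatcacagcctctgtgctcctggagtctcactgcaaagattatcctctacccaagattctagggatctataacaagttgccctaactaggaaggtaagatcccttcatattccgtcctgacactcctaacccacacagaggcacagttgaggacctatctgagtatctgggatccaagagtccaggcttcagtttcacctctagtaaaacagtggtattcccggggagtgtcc
Gfi1b: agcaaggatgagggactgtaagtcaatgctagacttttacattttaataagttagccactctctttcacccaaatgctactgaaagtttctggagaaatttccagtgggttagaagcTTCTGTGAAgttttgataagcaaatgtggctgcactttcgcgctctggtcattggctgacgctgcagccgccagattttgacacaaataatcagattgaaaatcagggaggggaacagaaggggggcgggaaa
Tnfrsf8: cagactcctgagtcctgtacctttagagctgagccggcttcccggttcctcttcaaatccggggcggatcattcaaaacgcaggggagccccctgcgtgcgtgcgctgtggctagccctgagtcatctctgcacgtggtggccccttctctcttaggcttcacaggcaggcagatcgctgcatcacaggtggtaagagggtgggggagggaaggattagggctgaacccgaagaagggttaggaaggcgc

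Among the 9785 genes with such a window, the RUNX letters were in 11.3% of those above the sum, 10.7% of those below and 10.9% of all. The STAT letters were in 6.66%, 7.79% and 6.04% in the same order. For GATA the shares were 7.43%, 8.19% and 6.1%, and for C/EBP they were 7.89%, 9.71% and 7.58%. A match is a run of letters, not a bound site.

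Neutrophil granule genes were the other large group below the sum, and here the double lay near the fusion's level. These proteins fill the granules formed late in neutrophil maturation, under G-CSF. Of 28 tested genes of later granules and mature neutrophils, 20 were below the sum (71.4%, against 9.42% of all genes tested) and 8 did not pass, with a median of -2.82. The receptor alone raised 26 and lowered 1, whereas the fusion alone raised 7 and lowered 12. In RUNX1-ETO_FIRST 9 rose and 13 fell. Over all genes tested, 19.9% rose and 13.2% fell with the receptor alone, and 20.8% rose and 18.2% fell with the fusion alone. In RUNX1-ETO_FIRST 23.7% of all genes rose and 20.2% fell. The summed level of 9 neutrophil markers was 771 to 906 CPM in RUNX1-ETO_FIRST, 612 to 766 in RUNX1-ETO_ONLY, 6246 to 6739 in CSF3R_ONLY and 769.6 to 1290.3 in EMPTY, with all 9 detected in each group.

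S100a9 (chromosome 3, 90692632 to 90695721, minus strand) and S100a8 encode calprotectin, an abundant neutrophil protein. S100a9 had 108, 89.2 and 82.9 CPM in RUNX1-ETO_FIRST and 98.01, 96.2 and 136 CPM in RUNX1-ETO_ONLY, 1273, 1238 and 1135 CPM in CSF3R_ONLY and 83.3, 64.2 and 127 CPM in EMPTY. The receptor alone raised it 13.3-fold, while in fusion cells its effect did not pass (log2 -0.24, adjusted p = 0.47). The additivity difference of S100a9 was -3.97 (SE 0.31, adjusted p = 3.31e-07). S100a8 had 71.9, 61.8 and 55.9 CPM in RUNX1-ETO_FIRST and 74.4, 74.6 and 109 CPM in RUNX1-ETO_ONLY, 1049, 920.3 and 924 CPM in CSF3R_ONLY and 91.7, 86.5 and 160.2 CPM in EMPTY, a difference of -3.54 (SE 0.32, adjusted p = 1.33e-06). In both genes CSF3R_ONLY was far above the other 3 groups, and RUNX1-ETO_FIRST overlapped EMPTY for S100a9 and lay below it for S100a8.

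Ltf, lactoferrin of the secondary granules, had 4.15, 2.37 and 2.71 CPM in RUNX1-ETO_FIRST and 9.43, 8.27 and 7.39 CPM in RUNX1-ETO_ONLY, 47.03, 51.8 and 48.2 CPM in CSF3R_ONLY and 6.45, 7.89 and 8.22 CPM in EMPTY. Every RUNX1-ETO_FIRST library was below every other library. The receptor raised Ltf 6.52-fold alone and lowered it 2.72-fold in fusion cells (adjusted p = 5.72e-05). Its difference was -4.15 (SE 0.26, adjusted p = 3.76e-08). Ngp (chromosome 9, 110419747 to 110423012, plus strand), neutrophilic granule protein, had 51.5, 36.6 and 40.5 CPM in RUNX1-ETO_FIRST and 64.1, 61.5 and 72.5 CPM in RUNX1-ETO_ONLY, 1730.0, 1675 and 1715 CPM in CSF3R_ONLY and 279, 270.0 and 379 CPM in EMPTY, and RUNX1-ETO_FIRST was again lowest. Its difference was -3.09 (SE 0.21, adjusted p = 6.67e-08). Mmp8, the neutrophil collagenase, rose with each allele alone, with 22.7, 23.4 and 24.1 CPM in RUNX1-ETO_FIRST and 12.95, 10.2 and 10.7 CPM in RUNX1-ETO_ONLY, 160.4, 172 and 145 CPM in CSF3R_ONLY and 2.53, 3.22 and 3.30 CPM in EMPTY. The double lay between the singles and the difference was -4.67 (SE 0.16, adjusted p = 1.13e-10). The cysteine protease inhibitor genes Stfa2, Stfa2l1 and Cstdc4, of a family of close copies, had differences of -4.33 (SE 0.31), -3.88 (SE 0.36) and -3.43 (SE 0.23). Stfa2 averaged 54.7 CPM in RUNX1-ETO_FIRST, 20.7 in RUNX1-ETO_ONLY, 295 in CSF3R_ONLY and 5.61 in EMPTY. Ltf, Ngp, S100a8, S100a9, Mmp8 and these 3 genes were below the sum on the CPM scale too.

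Not all neutrophil genes departed. Pglyrp1, a peptidoglycan-binding granule protein, averaged 167 CPM in RUNX1-ETO_FIRST, 153 in RUNX1-ETO_ONLY, 499 in CSF3R_ONLY and 252 in EMPTY, with a difference of -0.86 (SE 0.33, adjusted p = 0.094). In 5 of 22 alternative settings Pglyrp1 did pass, below the sum, and its values over all settings were -1.29 to -0.66. Retnlg was at 2.30, 1.82 and 1.30 CPM in RUNX1-ETO_FIRST, 1.12, 1.90 and 1.57 in RUNX1-ETO_ONLY, 34.9, 36.8 and 29.1 in CSF3R_ONLY and 0.110, 0.278 and 0.180 in EMPTY, and Mmp9, gelatinase B, averaged 1.16 CPM in RUNX1-ETO_FIRST, 0.206 in RUNX1-ETO_ONLY, 51.7 in CSF3R_ONLY and 0.151 in EMPTY. Both were below the sum.

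Primary granule genes are made earlier in the promyelocyte. Of 12 tested, 3 (25%) were above the sum and 1 (8.33%) below, with a median of 0.22, where 6.42% and 9.42% of all genes tested were above and below. None of the 3 calls above held with every library left out in turn. Mpo, myeloperoxidase, averaged 13804 ± 736 CPM in RUNX1-ETO_FIRST, 18235 ± 539 in RUNX1-ETO_ONLY, 25625 ± 202 in CSF3R_ONLY and 45076 ± 2693 in EMPTY (SD, n = 3 each). It was above the sum by 0.41 (SE 0.13, adjusted p = 0.035), a call that was lost when 1 of 8 libraries was left out, with values of 0.37 to 0.44 (RUNX1-ETO_FIRST 1 or 3, RUNX1-ETO_ONLY 1 or 2, EMPTY 2 and each of CSF3R_ONLY). The serine protease genes Prtn3 and Ctsg were above by 0.64 (SE 0.20) and 0.62 (SE 0.17). Both calls were lost without RUNX1-ETO_FIRST 1, RUNX1-ETO_ONLY 1 or 2, or any one of CSF3R_ONLY, with values of 0.53 to 0.67 for Prtn3 and 0.53 to 0.62 for Ctsg. Elane, neutrophil elastase, averaged 209.6 CPM in RUNX1-ETO_FIRST, 199.8 in RUNX1-ETO_ONLY, 1445 in CSF3R_ONLY and 1919 in EMPTY, and its difference of 0.48 (SE 0.27, adjusted p = 0.27) did not pass. Lyz2, lysozyme, was the member below, with 98.4 CPM in RUNX1-ETO_FIRST, 136 in RUNX1-ETO_ONLY, 332 in CSF3R_ONLY and 127 in EMPTY and -1.85 (SE 0.15).

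Of 16 tested monocyte genes, 3 were above the sum (18.8%, against 6.42% of all genes tested) and 2 below (12.5%, against 9.42%), with a median of -0.04, or 0.18 with the floor. Csf1r, the M-CSF receptor, averaged 9.30 CPM in RUNX1-ETO_FIRST, 9.03 in RUNX1-ETO_ONLY, 19.2 in CSF3R_ONLY and 7.62 in EMPTY, a difference of -1.29 (SE 0.13). F13a1, coagulation factor XIII, averaged 238 CPM in RUNX1-ETO_FIRST, 108 in RUNX1-ETO_ONLY, 1124 in CSF3R_ONLY and 777 in EMPTY, and Lgals3, galectin 3, 45.4 CPM in RUNX1-ETO_FIRST, 4.05 in RUNX1-ETO_ONLY, 174 in CSF3R_ONLY and 29.7 in EMPTY. Their differences were 0.61 (SE 0.15) and 0.94 (SE 0.24), and the call for Lgals3 was lost without RUNX1-ETO_ONLY 2, at 0.82. The summed level of 8 monocyte and macrophage markers was 529 to 545 CPM in RUNX1-ETO_FIRST, 347 to 370 in RUNX1-ETO_ONLY, 1394 to 1416 in CSF3R_ONLY and 1020 to 1232 in EMPTY, with C1qa at 0 in all 4 groups.

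**Figure D3:**
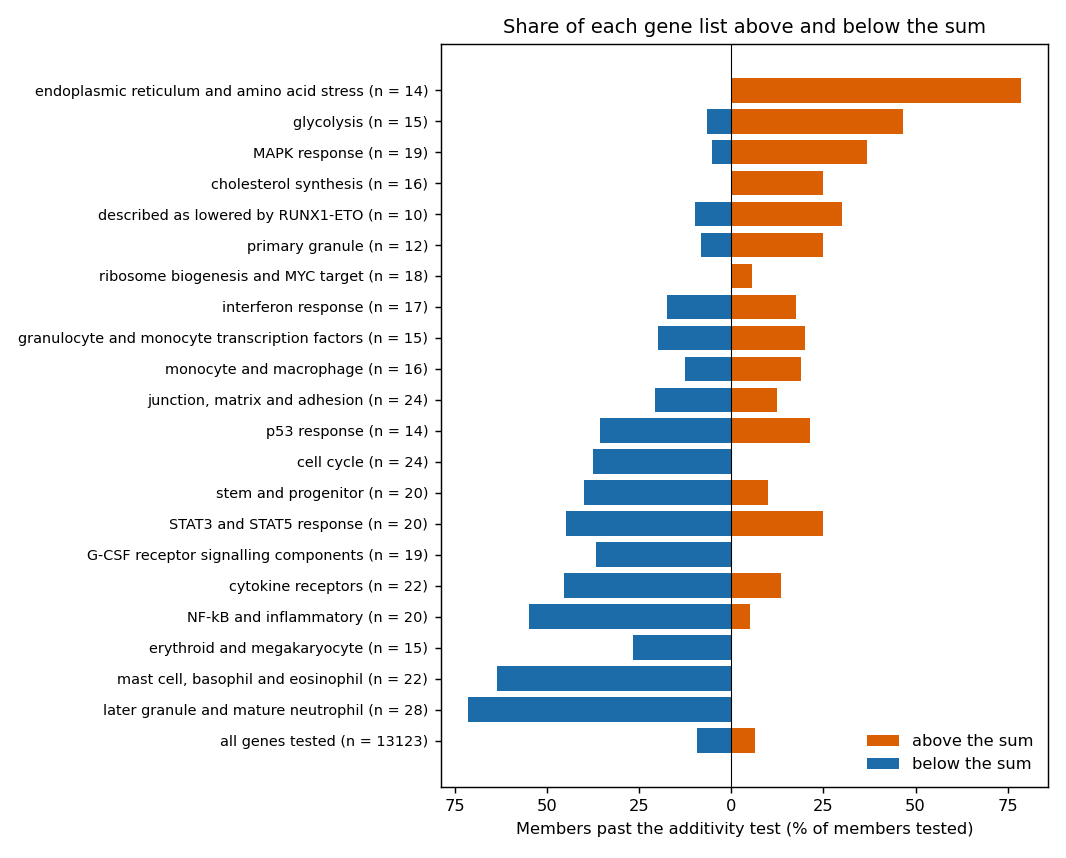
Percentage of the tested members of each gene list past the additivity test, below the sum to the left and above it to the right, for lists with at least 10 tested members and for all genes tested (lowest row). Later granule genes have 71.4% below and stress genes of the endoplasmic reticulum and amino acid response have 78.6% above, against 9.42% and 6.42% of all genes tested.

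Which single allele the double resembled was asked for genes that differed at least 2-fold between RUNX1-ETO_ONLY and CSF3R_ONLY, 2351 genes or 17.9% of those tested (46% passed at any fold). RUNX1-ETO_FIRST was tested against the midpoint of the singles, a contrast orthogonal to the difference that chose the genes. Among all genes tested, 28.5% differed from the midpoint, and 8.76% by at least 2-fold. RUNX1-ETO_FIRST lay on the fusion side in 996 genes (42.4%) and on the receptor side in 311 (13.2%), and was not told from the midpoint in 1044. An additive gene that only the fusion moved would also lie on the fusion side, so a side alone is no departure from the sum. Against EMPTY, the fusion alone moved 2046 genes (15.6%) at least 2-fold and the receptor alone 1505 (11.5%). How many genes an additive outcome would place on each side was not tested. With the CSF3R_ONLY level at 0 and the RUNX1-ETO_ONLY level at 1 on the log2 scale, the median position was 0.73, with quartiles of 0.44 and 0.96. The double went beyond the fusion's level in 167 genes and beyond the receptor's in 89.

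By direction, the shares were as follows. Of 1012 genes higher in RUNX1-ETO_ONLY, 527 (52.1%) lay on the fusion side and 29 (2.87%) on the receptor side, with a median position of 0.80. Of 1339 genes higher in CSF3R_ONLY, 469 (35%) lay on the fusion side and 282 (21.1%) on the receptor side, with a median of 0.68. Whether these shares differ beyond the error was not tested. Among the 783 of these genes that also departed from the sum, 446 lay on the fusion side and 153 on the receptor side.

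**Figure D4:**
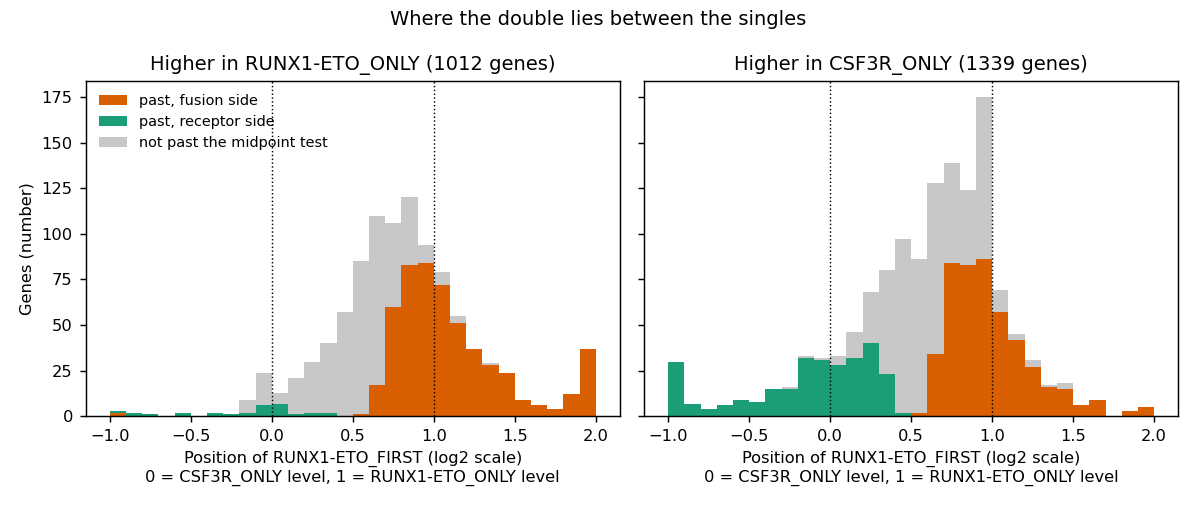
Number of genes by position of RUNX1-ETO_FIRST between the singles, 0 being the CSF3R_ONLY level and 1 the RUNX1-ETO_ONLY level on the log2 scale, for genes higher in RUNX1-ETO_ONLY (left) and in CSF3R_ONLY (right); positions beyond the axis are counted in its end bins. Colours show the side past the midpoint test, with 996 genes on the fusion side and 311 on the receptor side.

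Genes named for dominance had at least 10 counts on average in each group and a mean log2 CPM of at least 3. Among those higher in RUNX1-ETO_ONLY, Insm1 had the largest difference between the singles on the fusion side. Insm1, a zinc finger repressor of neuroendocrine cells, had 37.02, 32.3 and 32.7 CPM in RUNX1-ETO_FIRST and 52.2, 51.2 and 59.5 CPM in RUNX1-ETO_ONLY, 0.525, 0.521 and 1.04 CPM in CSF3R_ONLY and 3.20, 3.72 and 5.82 CPM in EMPTY. The double was nearer RUNX1-ETO_ONLY, with no overlap between groups. Plxdc2, a plexin domain protein, averaged 68.6 CPM in RUNX1-ETO_FIRST, 54.9 in RUNX1-ETO_ONLY, 0.773 in CSF3R_ONLY and 1.27 in EMPTY, and Camk2a, a calmodulin-dependent kinase, 72.98 CPM in RUNX1-ETO_FIRST, 83.8 in RUNX1-ETO_ONLY, 2.19 in CSF3R_ONLY and 5.70 in EMPTY. Mdga1 averaged 327 CPM in RUNX1-ETO_FIRST, 530.1 in RUNX1-ETO_ONLY, 17.7 in CSF3R_ONLY and 33.5 in EMPTY and Mc5r, a melanocortin receptor, 33.4 CPM in RUNX1-ETO_FIRST, 89.5 in RUNX1-ETO_ONLY, 3.05 in CSF3R_ONLY and 10.3 in EMPTY. Mdga1 and Mc5r did not pass the additivity test, with differences of 0.22 and 0.32. Other genes on the fusion side were high with the receptor alone and low with the fusion alone. Ifitm3, an interferon-induced membrane protein of a family of close copies, had 24.8, 21.8 and 22.6 CPM in RUNX1-ETO_FIRST and 7.85, 7.45 and 9.59 CPM in RUNX1-ETO_ONLY, 364, 385 and 362 CPM in CSF3R_ONLY and 39.4, 41.3 and 80.1 CPM in EMPTY. Prg2, major basic protein of eosinophils, averaged 3.13 CPM in RUNX1-ETO_FIRST, 2.97 in RUNX1-ETO_ONLY, 98.5 in CSF3R_ONLY and 23.8 in EMPTY, Olfml2b 24.3 CPM in RUNX1-ETO_FIRST, 9.41 in RUNX1-ETO_ONLY, 258 in CSF3R_ONLY and 40.7 in EMPTY and Rhou 2.37 CPM in RUNX1-ETO_FIRST, 2.22 in RUNX1-ETO_ONLY, 53.6 in CSF3R_ONLY and 36.3 in EMPTY. Rhou did not pass the additivity test, with a difference of -0.47.

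On the receptor side, Serpine2, a serine protease inhibitor, had 35.3, 35.9 and 32.4 CPM in RUNX1-ETO_FIRST and 1.02, 1.44 and 0.786 CPM in RUNX1-ETO_ONLY, 193, 187 and 201 CPM in CSF3R_ONLY and 12.8, 12.3 and 13.3 CPM in EMPTY. The fusion alone lowered it and the receptor alone raised it, and the double lay nearer CSF3R_ONLY on the log2 scale. Tgfbi, a matrix protein induced by TGF-beta, had 69.4, 70.6 and 68.8 CPM in RUNX1-ETO_FIRST and 5.71, 5.09 and 6.29 CPM in RUNX1-ETO_ONLY, 145, 145 and 141 CPM in CSF3R_ONLY and 12.4, 13.9 and 11.5 CPM in EMPTY. Its additivity difference of 0.10 (SE 0.12, adjusted p = 0.66) did not pass. Under the same limits on counts and level, Lgals3, Mcpt2 and Rtn4rl2 were the other genes of this kind with the largest difference between the singles, and Rtn4rl2 averaged 34.5 CPM in RUNX1-ETO_FIRST, 3.75 in RUNX1-ETO_ONLY, 111 in CSF3R_ONLY and 20.2 in EMPTY. The 29 genes high in RUNX1-ETO_ONLY that lay on the receptor side included 5 named here. Fyn, a Src family kinase, had 11.4, 11.7 and 12.8 CPM in RUNX1-ETO_FIRST and 40.3, 38.1 and 39.9 CPM in RUNX1-ETO_ONLY, 6.65, 6.66 and 7.56 CPM in CSF3R_ONLY and 15.3, 14.7 and 16.8 CPM in EMPTY. Selenop, the selenium carrier protein, averaged 11.7 CPM in RUNX1-ETO_FIRST, 44.4 in RUNX1-ETO_ONLY, 11.1 in CSF3R_ONLY and 23.5 in EMPTY, Ralgps2 16.2 CPM in RUNX1-ETO_FIRST, 39.6 in RUNX1-ETO_ONLY, 14.8 in CSF3R_ONLY and 31.2 in EMPTY and the imprinted noncoding gene Peg13 28.6 CPM in RUNX1-ETO_FIRST, 59.7 in RUNX1-ETO_ONLY, 20.7 in CSF3R_ONLY and 44.3 in EMPTY. Ralgps2 and Peg13 did not pass the additivity test, with differences of -0.21 and 0.03. Chil3, a chitinase-like protein of myeloid cells, averaged 31.1 CPM in RUNX1-ETO_FIRST, 72.5 in RUNX1-ETO_ONLY, 29.7 in CSF3R_ONLY and 9.74 in EMPTY and was below the sum, at -2.83 (SE 0.20).

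By lineage, 22 of the 27 later granule genes that were 2-fold apart between the singles lay on the fusion side and 3 on the receptor side. Of 16 such mast cell, basophil and eosinophil genes, 10 lay on the fusion side and 5 on the receptor side. Against these, 42.4% and 13.2% of all genes that were 2-fold apart lay on the fusion and the receptor side.

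The receptor's effect was then compared with and without the fusion. The effect in fusion cells is RUNX1-ETO_FIRST against RUNX1-ETO_ONLY and the effect without the fusion is CSF3R_ONLY against EMPTY, so no library is shared. Of 1080 genes that the receptor alone raised at least 2-fold, 682 (63.1%) also rose with it in fusion cells, where 16% of all genes rose, 358 did not pass and 40 (3.7%) fell. Their median log2 fold change was 1.05 in fusion cells and 2.34 without the fusion. Of 425 genes that it lowered at least 2-fold, 130 (30.6%) fell in fusion cells, where 10.3% of all genes fell, 256 did not pass and 39 (9.18%) rose. Their medians were -0.43 in fusion cells and -1.60 without the fusion. Genes picked for a large effect tend to show a smaller one in other libraries, and its part here was not tested. Across the 13123 genes Pearson's r between both effects was 0.55 and Spearman's coefficient 0.43, as a description over genes measured in the same libraries.

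The fusion's effect was compared in the same way. Of 1164 genes that the fusion alone raised at least 2-fold, 881 (75.7%) also rose in receptor cells (RUNX1-ETO_FIRST against CSF3R_ONLY), where 20% of all genes rose, and 52 fell. The medians were 1.34 in receptor cells and 2.12 without the receptor. Of 882 genes that it lowered at least 2-fold, 601 (68.1%) fell in receptor cells, where 19.6% of all genes fell, and 43 rose, with medians of -1.27 and -1.75 in the same order. Across genes Pearson's r was 0.65 and Spearman's coefficient 0.60.

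**Figure D5:**
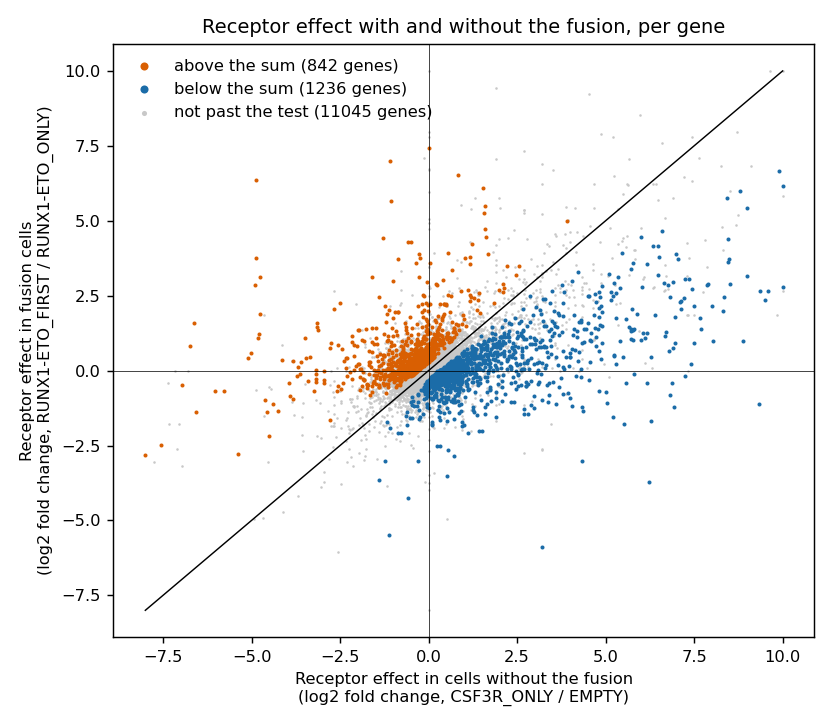
Receptor effect of each of the 13123 genes tested, in fusion cells (vertical, log2 of RUNX1-ETO_FIRST over RUNX1-ETO_ONLY) and in cells without the fusion (horizontal, log2 of CSF3R_ONLY over EMPTY); the diagonal marks equal effects and values beyond the axes are drawn at their ends. The 842 genes above the sum lie above the diagonal and the 1236 below it under the diagonal, many with an effect near 0 in fusion cells.

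Signalling downstream of the receptor was followed through lists. Of 19 components of the G-CSF receptor pathway, 7 were below the sum (36.8%, against 9.42% of all genes tested) and 12 did not pass, with a median of -0.36. Lyn, a Src family kinase that the receptor engages, averaged 103 CPM in RUNX1-ETO_FIRST, 89.7 in RUNX1-ETO_ONLY, 138 in CSF3R_ONLY and 73.4 in EMPTY and was below, at -0.72 (SE 0.10), and the kinase Syk averaged 233 CPM in RUNX1-ETO_FIRST, 259 in RUNX1-ETO_ONLY, 342 in CSF3R_ONLY and 223 in EMPTY and was below, at -0.77 (SE 0.12). Jak1 and Grb2 did not pass, with -0.36 (SE 0.16) and -0.14 (SE 0.12).

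STAT3 and STAT5 response genes were found on both sides, 5 of 20 above (25%, against 6.42% of all genes tested) and 9 below (45%, against 9.42%), with a median of -0.33. Socs2, a feedback inhibitor of STAT5 signalling, had 9.87, 9.63 and 7.78 CPM in RUNX1-ETO_FIRST and 1.12, 0.822 and 1.15 CPM in RUNX1-ETO_ONLY, 1.40, 1.51 and 0.692 CPM in CSF3R_ONLY and 3.47, 2.78 and 4.74 CPM in EMPTY. Each allele alone lowered it and the double was above all other groups, a difference of 4.73 (SE 0.38, adjusted p = 3.67e-07). Socs3, the feedback inhibitor of STAT3 signalling, had 195, 195 and 196 CPM in RUNX1-ETO_FIRST and 54.97, 53.02 and 49.6 CPM in RUNX1-ETO_ONLY, 153, 156 and 163 CPM in CSF3R_ONLY and 20.1, 16.8 and 15.8 CPM in EMPTY. No groups overlapped. Socs3 was below the log2 sum, with a difference of -1.27 (SE 0.12, adjusted p = 2.41e-06), while the CPM sum would be 193 CPM, near the measured level. Bcl6, a repressor induced by STAT3, averaged 28.5 CPM in RUNX1-ETO_FIRST, 32.9 in RUNX1-ETO_ONLY, 57.97 in CSF3R_ONLY and 19.2 in EMPTY and was below, at -1.80 (SE 0.17). Myc and Junb did not pass, with 0.13 (SE 0.11) and -0.32 (SE 0.12).

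Cytokine receptor genes were below the sum in 10 of 22 (45.5%, against 9.42% of all genes tested) and above in 3 (13.6%, against 6.42%), with a median of -0.38. Csf2rb2, the mouse interleukin 3 receptor beta chain, had 2240.1, 2515 and 2704 CPM in RUNX1-ETO_FIRST and 453, 471 and 401 CPM in RUNX1-ETO_ONLY, 1664, 1689.5 and 1732 CPM in CSF3R_ONLY and 84.4, 80.4 and 58.6 CPM in EMPTY. The double was above both singles and below the log2 sum, at -2.01 (SE 0.18, adjusted p = 1.11e-06). Its close paralog Csf2rb makes its counts less certain. Il6st, the gp130 chain shared by interleukin 6 family receptors, averaged 15.7 CPM in RUNX1-ETO_FIRST, 15.8 in RUNX1-ETO_ONLY, 7.998 in CSF3R_ONLY and 2.51 in EMPTY, a difference of -1.67 (SE 0.25), and Il17ra 79.5 CPM in RUNX1-ETO_FIRST, 76.8 in RUNX1-ETO_ONLY, 138 in CSF3R_ONLY and 52.5 in EMPTY, a difference of -1.35 (SE 0.22). Il1r1 was above the sum, with 2.62 CPM in RUNX1-ETO_FIRST, 2.02 in RUNX1-ETO_ONLY, 1.95 in CSF3R_ONLY and 4.83 in EMPTY and 1.68 (SE 0.28). Il7r, the interleukin 7 receptor, had 50.3, 46.3 and 50.8 CPM in RUNX1-ETO_FIRST, 0.867, 0.976 and 0.838 in RUNX1-ETO_ONLY, 28.7, 27.4 and 29.4 in CSF3R_ONLY and 2, 0 and 2 counts in EMPTY, and was below the log2 sum.

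NF-kB and inflammatory genes were below the sum in 11 of 20 (55%, against 9.42% of all genes tested) and above in 1, with a median of -0.64, and 7 were below among genes with a mean CPM of at least 5. In the double 17 rose, with the fusion alone 16 and with the receptor alone 17, where 23.7%, 20.8% and 19.9% of all genes rose. The interleukin 6 gene Il6 averaged 72.9 CPM in RUNX1-ETO_FIRST, 23.8 in RUNX1-ETO_ONLY, 7.67 in CSF3R_ONLY and 0.379 in EMPTY, and the chemokine gene Ccl2 31.6 CPM in RUNX1-ETO_FIRST, 16.8 in RUNX1-ETO_ONLY, 4.70 in CSF3R_ONLY and 0.0200 in EMPTY. Il1b averaged 3.03 CPM in RUNX1-ETO_FIRST, 5.23 in RUNX1-ETO_ONLY, 3.25 in CSF3R_ONLY and 0.225 in EMPTY and Cxcl2 2.07 CPM in RUNX1-ETO_FIRST, 0.378 in RUNX1-ETO_ONLY, 3.89 in CSF3R_ONLY and 0.0185 in EMPTY. All 4 were below the log2 sum, and all 4 had under 10 counts on average in EMPTY. Ccl3, a chemokine gene with 183 CPM in RUNX1-ETO_FIRST, 47.9 in RUNX1-ETO_ONLY, 16.99 in CSF3R_ONLY and 5.44 in EMPTY, did not pass, at 0.28 (SE 0.25, adjusted p = 0.52).

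Targets of the MAPK cascade were above the sum in 7 of 19 (36.8%, against 6.42% of all genes tested) and below in 1, Egr1. Egr1, an immediate early transcription factor, had 350.2, 401 and 417 CPM in RUNX1-ETO_FIRST and 221, 212 and 205 CPM in RUNX1-ETO_ONLY, 111, 112 and 109 CPM in CSF3R_ONLY and 14.3, 17.1 and 12.5 CPM in EMPTY, a difference of -2.04 (SE 0.14, adjusted p = 6.76e-08). The double was above both singles. Fosl1, an AP-1 subunit, averaged 31.5 CPM in RUNX1-ETO_FIRST, 13.3 in RUNX1-ETO_ONLY, 42.2 in CSF3R_ONLY and 41.6 in EMPTY and was above by 1.22 (SE 0.20), and Spry2, a feedback inhibitor, averaged 19.4 CPM in RUNX1-ETO_FIRST, 9.32 in RUNX1-ETO_ONLY, 18.6 in CSF3R_ONLY and 15.3 in EMPTY and was above by 0.78 (SE 0.15). Etv4, an ETS factor, averaged 21.3 CPM in RUNX1-ETO_FIRST, 22.3 in RUNX1-ETO_ONLY, 8.56 in CSF3R_ONLY and 15.1 in EMPTY and was above by 0.75 (SE 0.15). Of 17 interferon response genes, 3 were above and 3 below, 17.6% on each side, against 6.42% and 9.42% of all genes tested. Irf7, a factor that drives interferon production, averaged 6.89 CPM in RUNX1-ETO_FIRST, 5.09 in RUNX1-ETO_ONLY, 3.42 in CSF3R_ONLY and 1.22 in EMPTY, at -1.05 (SE 0.24), and Gbp3, a guanylate-binding protein, 3.03 CPM in RUNX1-ETO_FIRST, 1.26 in RUNX1-ETO_ONLY, 1.08 in CSF3R_ONLY and 1.66 in EMPTY, at 1.88 (SE 0.37). Among the others, the call for Oasl1 above the sum, at 2.31 (SE 0.70), was lost without any one of RUNX1-ETO_FIRST, RUNX1-ETO_ONLY 1 or 2, CSF3R_ONLY 1 or 2, or EMPTY 3, at 1.61 to 2.35. The call for Ifit2 below it, at -1.57 (SE 0.48), was lost without RUNX1-ETO_FIRST 1 or 2, RUNX1-ETO_ONLY 1 or 2, or CSF3R_ONLY 1 or 2, at -1.62 to -1.25.

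Stress genes of the endoplasmic reticulum and amino acid response were above the sum in 11 of 14 (78.6%, against 6.42% of all genes tested) and did not pass in 3, with a median of 0.51. In the double 5 of the 14 fell and 2 rose, the fusion alone lowered 10, and the receptor alone lowered 6 and raised 2. Over all genes, 20.2% fell in the double, 18.2% with the fusion alone and 13.2% with the receptor alone. Trib3, a pseudokinase induced by amino acid stress, had 17.7, 14.9 and 14.5 CPM in RUNX1-ETO_FIRST and 7.75, 6.32 and 6.81 CPM in RUNX1-ETO_ONLY, 9.10, 8.45 and 10.1 CPM in CSF3R_ONLY and 12.4, 12.5 and 14.3 CPM in EMPTY. The difference was 1.68 (SE 0.17, adjusted p = 5.23e-06), and every RUNX1-ETO_FIRST library lay above every other, although the test against EMPTY did not pass (adjusted p = 0.08). Hsp90b1, a chaperone of the endoplasmic reticulum, averaged 977 ± 42.8 CPM in RUNX1-ETO_FIRST, 624 ± 38.1 in RUNX1-ETO_ONLY, 875 ± 14.4 in CSF3R_ONLY and 962 ± 165 in EMPTY (SD, n = 3 each), and was above by 0.78 (SE 0.15). Ddit3, the transcription factor CHOP, averaged 10.7 CPM in RUNX1-ETO_FIRST, 7.97 in RUNX1-ETO_ONLY, 6.03 in CSF3R_ONLY and 8.45 in EMPTY and was above by 0.92 (SE 0.22). Xbp1, which encodes a factor of the unfolded protein response, did not pass, at -0.05 (SE 0.15). The count of 11 was 7 without RUNX1-ETO_ONLY 2 or without CSF3R_ONLY 2.

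Of 15 glycolysis genes, 7 were above the sum (46.7%, against 6.42% of all genes tested) and 1 below, and 13 were above without the libraries low in long transcripts. In the double 8 rose, against 23.7% of all genes, and the fusion alone lowered 11, against 18.2%. Eno1, enolase, had 3734, 3146 and 3236 CPM in RUNX1-ETO_FIRST and 1723, 1682 and 1981 CPM in RUNX1-ETO_ONLY, 3063, 2979 and 3137 CPM in CSF3R_ONLY and 2533, 2640.2 and 3823 CPM in EMPTY, a difference of 0.88 (SE 0.19, adjusted p = 0.0038). The RUNX1-ETO_FIRST libraries were above all of RUNX1-ETO_ONLY, and overlapped EMPTY. Pfkp, a phosphofructokinase, averaged 419.8 CPM in RUNX1-ETO_FIRST, 273 in RUNX1-ETO_ONLY, 297 in CSF3R_ONLY and 330.1 in EMPTY and was above by 0.77 (SE 0.10). Slc2a3, a glucose transporter, was below, with 56.99 CPM in RUNX1-ETO_FIRST, 42.6 in RUNX1-ETO_ONLY, 94.3 in CSF3R_ONLY and 33.996 in EMPTY and -1.05 (SE 0.12). Cholesterol synthesis genes all rose in the double, 16 of 16, against 23.7% of all genes tested. The receptor alone raised 13 of these, against 19.9% of all genes, and the fusion alone lowered 6, against 18.2%. Their median log2 fold change against EMPTY was 0.61 in the double and 0.63 with the receptor alone. Above the sum were 4 (25%, against 6.42% of all genes tested), and 12 did not pass. Lss, lanosterol synthase, had 113, 123 and 126 CPM in RUNX1-ETO_FIRST and 48.5, 51.1 and 49.4 CPM in RUNX1-ETO_ONLY, 86.7, 84.9 and 87.95 CPM in CSF3R_ONLY and 56.7, 56.2 and 47.4 CPM in EMPTY, a difference of 0.58 (SE 0.11, adjusted p = 0.0016), and Hmgcs1, which makes a precursor of mevalonate, averaged 208 CPM in RUNX1-ETO_FIRST, 96.9 in RUNX1-ETO_ONLY, 132 in CSF3R_ONLY and 85.02 in EMPTY and was above by 0.47 (SE 0.11).

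The cell cycle, ribosome biogenesis and p53 lists had median differences of -0.22, 0.18 and -0.22, against -0.02 over all genes tested. Single members departed further. Ccnd2, above by 3.05, was counted with the STAT3 and STAT5 response genes. Of 24 cell cycle genes 9 were below the sum (37.5%, against 9.42% of all genes tested) and 15 did not pass, with a median of -0.22, and 14 were below without the libraries low in long transcripts. In the double 16 fell, against 20.2% of all genes. Top2a, the topoisomerase of dividing cells, had 450.3, 480.4 and 483 CPM in RUNX1-ETO_FIRST and 554, 571 and 524 CPM in RUNX1-ETO_ONLY, 599, 599.8 and 601 CPM in CSF3R_ONLY and 508, 494 and 430.2 CPM in EMPTY, a difference of -0.55 (SE 0.10, adjusted p = 0.0015). It rose with each allele alone, and the double was not shown to differ from EMPTY (adjusted p = 0.86). Ccne2, a G1 cyclin, averaged 35.7 CPM in RUNX1-ETO_FIRST, 40.5 in RUNX1-ETO_ONLY, 58.1 in CSF3R_ONLY and 38.2 in EMPTY and was below, at -0.79 (SE 0.17). Mki67, a proliferation marker, averaged 474 ± 156 CPM in RUNX1-ETO_FIRST, 542 ± 171 in RUNX1-ETO_ONLY, 917 ± 65.3 in CSF3R_ONLY and 539 ± 246 in EMPTY (SD, n = 3 each), and its difference of -0.96 (SE 0.45, adjusted p = 0.18) did not pass. Of 18 ribosome biogenesis and MYC target genes 1, Odc1, was above the sum and 17 did not pass. In the double 6 of the 18 fell, against 20.2% of all genes, and the receptor alone lowered 15, against 13.2%. Of 14 p53 response genes 3 were above (21.4%, against 6.42% of all genes tested) and 5 below (35.7%, against 9.42%). From 2 to 4 were below without any 1 of the 12 libraries (2 without RUNX1-ETO_FIRST 3, CSF3R_ONLY 2 or CSF3R_ONLY 3). Cdkn1a, the cell cycle inhibitor p21, averaged 496 CPM in RUNX1-ETO_FIRST, 172 in RUNX1-ETO_ONLY, 310.3 in CSF3R_ONLY and 175 in EMPTY and was above by 0.70 (SE 0.14). The tumour suppressor target Zmat3 averaged 9.25 CPM in RUNX1-ETO_FIRST, 6.55 in RUNX1-ETO_ONLY, 11.8 in CSF3R_ONLY and 2.40 in EMPTY and was below, at -1.79 (SE 0.23).

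Stem and progenitor genes were below the sum in 8 of 20 (40%, against 9.42% of all genes tested) and above in 2 (10%, against 6.42%). Cd34, a progenitor surface protein, had 861, 801 and 810.3 CPM in RUNX1-ETO_FIRST and 1199, 1129 and 1141 CPM in RUNX1-ETO_ONLY, 162, 169 and 163 CPM in CSF3R_ONLY and 248, 239 and 220.0 CPM in EMPTY, and did not pass, at 0.03 (SE 0.10, adjusted p = 0.89). Ly6a, the stem cell antigen Sca-1, averaged 328 CPM in RUNX1-ETO_FIRST, 24.6 in RUNX1-ETO_ONLY, 53.8 in CSF3R_ONLY and 0.401 in EMPTY and was below the log2 sum, with under 10 counts on average in EMPTY. Myb did not pass, at 0.22 (SE 0.15). Erythroid and megakaryocyte genes were below in 4 of 15 (26.7%), and 11 did not pass. Car2, carbonic anhydrase, averaged 20.2 CPM in RUNX1-ETO_FIRST, 53.5 in RUNX1-ETO_ONLY, 23.4 in CSF3R_ONLY and 17.5 in EMPTY and Itga2b, the integrin chain of platelets, 229 CPM in RUNX1-ETO_FIRST, 163 in RUNX1-ETO_ONLY, 241 in CSF3R_ONLY and 75.9 in EMPTY, with differences of -1.83 (SE 0.12) and -1.17 (SE 0.09). Summed erythroid markers ranged from 0.357 to 12.9 CPM over the 12 libraries and were highest in CSF3R_ONLY.

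Granulocyte and monocyte transcription factors were above the sum in 3 of 15 and below in 3, 20% on each side, against 6.42% and 9.42% of all genes tested. Of those below, Klf2, at -0.59, lost its call in 13 of 22 alternative settings. Besides Irf8, Bhlhe40 was above with 234 CPM in RUNX1-ETO_FIRST, 92.5 in RUNX1-ETO_ONLY, 157 in CSF3R_ONLY and 86.02 in EMPTY and 0.47 (SE 0.09), while Rara, the retinoic acid receptor alpha, was below with 67.9 CPM in RUNX1-ETO_FIRST, 31.4 in RUNX1-ETO_ONLY, 46.8 in CSF3R_ONLY and 11.3 in EMPTY and -0.94 (SE 0.18). Spi1, the transcription factor PU.1, averaged 292 CPM in RUNX1-ETO_FIRST, 239 in RUNX1-ETO_ONLY, 699.9 in CSF3R_ONLY and 562 in EMPTY and did not pass, at -0.03 (SE 0.22). Cebpa, a factor of granulocyte commitment, averaged 422 CPM in RUNX1-ETO_FIRST, 376 in RUNX1-ETO_ONLY, 653 in CSF3R_ONLY and 745 in EMPTY and was above by 0.35 (SE 0.10, adjusted p = 0.024), a call that was lost without RUNX1-ETO_FIRST 1, RUNX1-ETO_ONLY 2, CSF3R_ONLY 1 or EMPTY 2, at 0.31 to 0.33. Of 9 tested genes described as raised by RUNX1-ETO 1 was above and 1 below, 11.1% on each side and near the shares over all genes. The gene above, Jag1 at 1.06, lost its call in 6 of 21 alternative settings. Of 10 described as lowered by RUNX1-ETO 3 were above (30%, against 6.42% of all genes tested) and 1 below (10%, against 9.42%). The calls for the 3 above, Cebpa, Mpo and Ctsg, were lost without single libraries. Jup, plakoglobin, a described target, averaged 67.4 CPM in RUNX1-ETO_FIRST, 52.1 in RUNX1-ETO_ONLY, 30.5 in CSF3R_ONLY and 9.57 in EMPTY and was below, at -1.30 (SE 0.11).

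Most of the remaining lists had few tested members. Of 5 antigen presentation genes 3 were above the sum (60%, against 6.42% of all genes tested) and 2 did not pass. The 3 were H2-Ab1, H2-DMb1 and H2-DMa, the last not without RUNX1-ETO_FIRST 1, RUNX1-ETO_ONLY 2 or CSF3R_ONLY 3 (0.74 to 0.76). H2-Ab1, a class II histocompatibility chain, averaged 4.74 CPM in RUNX1-ETO_FIRST, 1.13 in RUNX1-ETO_ONLY, 0.716 in CSF3R_ONLY and 4.59 in EMPTY, and each single allele lowered it. Of 24 junction, matrix and adhesion genes 3 were above (12.5%, against 6.42% of all genes tested) and 5 below (20.8%, against 9.42%). Spp1, osteopontin, averaged 13.1 CPM in RUNX1-ETO_FIRST, 0.981 in RUNX1-ETO_ONLY, 9.10 in CSF3R_ONLY and 16.6 in EMPTY and was above by 4.59 (SE 0.21). Of 5 lymphoid genes 1, Thy1, was above with 14.5 CPM in RUNX1-ETO_FIRST, 2.53 in RUNX1-ETO_ONLY, 3.85 in CSF3R_ONLY and 2.62 in EMPTY and 1.97 (SE 0.21), and 1, Il7r, below. Neither of 2 tested stromal, endothelial and epithelial genes passed, Pecam1 with 0.17 (SE 0.09) and Col1a1, which stayed at or under 1.003 CPM on average in all 4 groups.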

How the data were processed

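Column-purified, DNase-treated RNA was made into stranded mRNA libraries and read on BGI's DNBSEQ, per the labels' protocols. The authors deposited raw counts per gene symbol, whole numbers with 1 column per library, and no column was left unused. Trimmomatic, STAR, DESeq2 and mm10 are named, without roles, in the submitters' processing notes. No source used here gives the counting program, annotation, strand setting or treatment of shared reads, so genes with close paralogs or overlapping neighbours are less certain. The 1 entry naming no gene, 0.0179% to 0.0305% of counts, was left out of 52328.

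Genes were kept by edgeR's default expression filter within groups (13123 genes). Counts of all 15 libraries entered edgeR 4.0.16 (robust quasi-likelihood fit, F tests, R 4.3.3), with TMM factors of 0.921 to 1.09 over the 15 libraries, 5 group means and 10 residual degrees of freedom. Two-sided p-values had Benjamini-Hochberg adjustment over the whole table, with a threshold of 0.05. CPM use the TMM factors. Positions between singles and floored medians use a floor of 3 counts per library. The script was tested on simulated data. Gene positions come from GENCODE M21 on mm10 (12820 genes matched), and promoters from RefSeq on GRCm38.p6 (9785 matched).

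The members and 26 gene lists (439 genes) were chosen with earlier results of these data known. No set test was run. A few genes that the rule below names are not reported here. Named genes were the 3 of the alleles; the 14 furthest above and below the sum with at least 10 counts on average per group and log2 CPM averaging at least 3; up to 4 on each side with fewer; up to 4 past and 2 not past the test from each list; 5 per side and direction for dominance; and 3 per class of single effects. Alternatives were library sizes alone, RLE factors, DESeq2 1.42.0, both looser and stricter filters, the 12 libraries alone, a replicate block, no robust moderation, limma 3.58.1 voom weights, and leaving out libraries.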

Additional observations from a re-analysis of the deposited data

Results flagged for a closer look

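In 235 genes the receptor changed the level in opposite directions in fusion cells and in cells without the fusion, with both effects and the additivity difference past the threshold. Without the fusion 130 of them rose and 105 fell, and in 46 both effects were at least 2-fold. Those with the largest difference, among genes with at least 10 counts on average in each group and a mean log2 CPM of at least 3, were Gfi1b, with -1.12 in fusion cells and 3.59 without the fusion (log2), a difference of -4.71, and Ltf, with -1.44 and 2.70, a difference of -4.15. Homer2 had -0.51 and 2.75, a difference of -3.26, and Ngp -0.62 and 2.46, a difference of -3.09.

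In 249 genes the fusion did so between receptor cells and cells without the receptor, 137 of them rising and 112 falling without the receptor, and in 66 both effects were at least 2-fold. Mmp8 had -2.77 in receptor cells and 1.90 without the receptor, a difference of -4.67. Stfa2 had -2.43 and 1.89, a difference of -4.33, and Stfa2l1 -3.19 and 0.69, a difference of -3.88. Pou2f2 had 2.64 and -0.89, a difference of 3.53.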

How the results depend on the processing

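Counts above and below the sum stayed within 1.5 times those reported except with voom sample weights (1487 above, 1993 below) and with the 4 libraries low in long transcripts left out (1557 and 1909). Leaving out one library at a time gave 635 to 1066 above and 994 to 1272 below. No gene above or below the sum was called on the other side under any of these alternatives. Nkg7, which did not pass (0.07), was below at -0.25 without those 4 libraries. Library sizes alone gave 733 above and 1423 below (34% of calls above, against 40.5%), with the median of all genes at -0.08 in place of -0.02. Deviations of same-numbered libraries correlated at -0.24 to 0.45 (median -0.01, 18 pairs), so the numbers were not taken to pair samples across the 4 groups, although the 3 pairs of RUNX1-ETO_ONLY and EMPTY all lay at 0.28 to 0.45; a fit with a replicate block gave 870 above and 1285 below.

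Of genes that differed at all between the singles, 1859 lay on the fusion side and 707 on the receptor side, and with a mean CPM of at least 5 there were 651 and 153. Leaving out one library gave 873 to 1082 and 268 to 326. As CPM sums, 156 called genes had the other sign. Among lists, p53 genes below numbered 3 with no filter, 2 with the 12 libraries alone and 2 to 4 with one library left out; NF-kB genes below numbered 7 at a mean CPM of at least 5. With voom weights 14 cell cycle genes were below and 11 glycolysis genes above, and with the 4 libraries left out 14 and 13. Stress genes above ranged from 7 to 12 with one library left out. The causes were not tested.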
